A study of Mus musculus with 4 samples.

Results

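The 10 genes described here encode the classical MHC class I presentation machinery of the mouse: the heavy chains H2-K1 and H2-D1, their light chain B2m, the peptide transporter Tap1 and Tap2, the loading factor Tapbp, the immunoproteasome subunits Psmb8, Psmb9 and Psmb10, and the transactivator Nlrc5. They were chosen by name, though with earlier results of these data known. All 10 were on the array, among 37074 gene or transcript names. They have 17 probes of 60 bases. Expression was measured in GC-1 cells, an immortalised mouse spermatogonial line, on 4 one-colour Agilent arrays hybridised with Cy3-labelled cRNA copied from oligo-dT primed total RNA. The empty vector group (2 arrays) came from cells transfected with a plasmid without an insert. The Hdac6 vector group (2 arrays) came from cells transfected with a pCMV plasmid carrying murine Hdac6 with a myc/DDK tag. The CMV promoter drives that insert. Both groups went through transfection and were harvested 48 h later. The baseline described here is therefore that of transfected cells. Both groups rest on 1 line, and the labels do not state if a group's 2 arrays are separate cultures. The p-values therefore reflect the spread between these particular samples alone, and that spread may be technical.

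MHC class I molecules show peptides from inside the cell to cytotoxic T cells. Proteins are cut by the proteasome, whose catalytic subunits are exchanged for Psmb8, Psmb9 and Psmb10 under interferon. The peptides are pumped into the endoplasmic reticulum by the Tap1-Tap2 transporter and fitted, with the help of tapasin (Tapbp), into a heavy chain paired with beta-2 microglobulin (B2m). Nlrc5 is recruited to a shared promoter module of these genes and switches them on together. Germ cells of the testis are known for low class I at their surface.

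The promoters of the first 3 genes are shown because they hold letters of that module. RefSeq promoter windows (GRCm38.p6) matched 8 of the 10 members. In the 180 bases before the annotated start, capitals mark the kappaB site of the class I enhancer A, the core of an interferon response element, TGACG (the core of the X2 box) and ATTGG. The last of these is, read on the other strand, the CCAAT box, as in the Y box.
H2-K1 (chr17:34000348-34000527, minus strand): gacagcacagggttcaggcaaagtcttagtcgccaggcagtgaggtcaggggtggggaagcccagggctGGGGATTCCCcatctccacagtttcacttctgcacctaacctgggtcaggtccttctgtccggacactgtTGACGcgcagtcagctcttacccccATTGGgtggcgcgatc
H2-D1 (chr17:35262914-35263093, plus strand): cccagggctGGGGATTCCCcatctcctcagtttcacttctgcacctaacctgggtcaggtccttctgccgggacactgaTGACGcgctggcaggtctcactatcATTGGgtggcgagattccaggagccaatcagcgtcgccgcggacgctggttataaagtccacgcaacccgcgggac
B2m (chr2:122147507-122147686, plus strand): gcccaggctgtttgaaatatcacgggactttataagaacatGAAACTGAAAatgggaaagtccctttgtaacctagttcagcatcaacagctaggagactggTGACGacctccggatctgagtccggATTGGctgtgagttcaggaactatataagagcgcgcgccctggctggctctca

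In these 3 promoters, shown because they hold the strings, ATTGG began 25 bases after TGACG. The windows of the other 5 members matched (Tap1, Tapbp, Psmb8, Psmb9 and Psmb10) did not hold the pair at that offset. Both strings at that offset, on the strand of the gene, were found in 18 of 32851 windows of 250 bases (0.0548%). These windows belong to 15 genes, among them the non-classical class I gene H2-M3. The searched string of the kappaB site was in the H2-K1 and H2-D1 windows and, on either strand, in 0.0852% of all windows. The searched core of the interferon element was in the B2m window and in 2.98% of all windows. Other forms of this element and of the kappaB site were not searched for and stay in lower case. The search therefore does not show that the H2-K1 and H2-D1 promoters lack an interferon element, or that the B2m promoter lacks a kappaB site. From the kappaB site to the end of ATTGG the H2-K1 and H2-D1 promoters were identical at 89 of 100 bases. The matches did not overlap each other. A match is a string of letters and not a measured binding site.

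**Figure D1:**
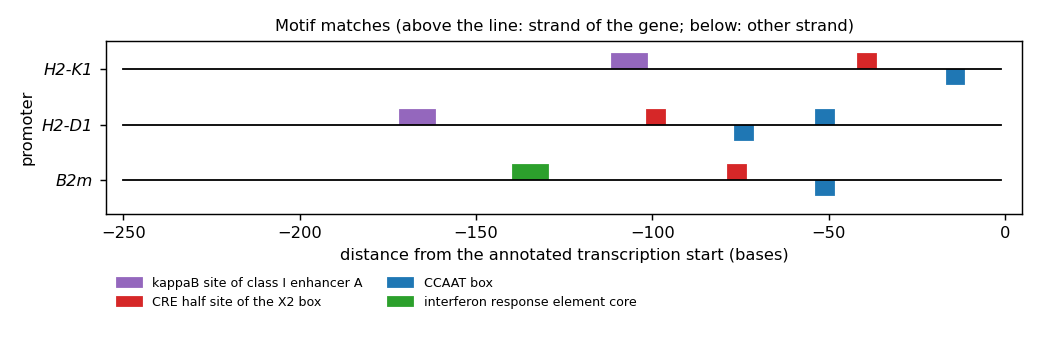
Positions of motif matches in the 250 bases before the annotated start of H2-K1, H2-D1 and B2m (x axis, bases from the start; boxes above the line are on the strand of the gene, boxes below on the other strand). In each promoter the X2 box core stands 25 bases before a CCAAT box on the other strand. H2-K1 and H2-D1 also hold the searched string of the kappaB site, whose other forms were not searched for.

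Tap1 and Psmb9 lie head to head on chromosome 17. The 225 bases between their annotated starts, shown because this stretch lies upstream of both, are given on the Tap1 strand, with the CCAAT box, the X2 box core and the GC box (GGGCGG, here on the Psmb9 strand) in capitals. The GC box was in 32.7% of all windows, the CCAAT box in 33.8% and the X2 box core in 17.8%, each on either strand.
Tap1-Psmb9 (chr17:34187331-34187555, GRCm38.p6, plus strand): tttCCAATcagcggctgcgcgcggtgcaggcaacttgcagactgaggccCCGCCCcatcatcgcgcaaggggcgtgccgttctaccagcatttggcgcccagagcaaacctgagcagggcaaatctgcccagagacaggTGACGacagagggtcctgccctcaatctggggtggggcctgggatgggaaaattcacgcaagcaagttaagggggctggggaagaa

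Levels below are log2 processed signal minus the array's own 75th percentile, so 0 is that percentile and each unit is a doubling. Signal differs between probes for reasons of sequence, so levels of different probes are not compared. The scanner software flagged 66.4% and 65.1% of spots on the empty vector arrays, called the control arrays from here on, as well above background. The shares on the Hdac6 vector arrays were 64.3% and 61%. The 75th percentile lay between 453.1 and 815 on the 4 arrays, and no spot was saturated. The array's 1 Hdac6 probe (X chromosome, 7507249 to 7507308, mm9) read 3.31 and 2.83 on the control arrays and 2.62 and 3.24 on the Hdac6 vector arrays, so the groups overlapped. No source used here says whether this probe can read the vector's transcript, so it does not check the labels. Of 17 germ cell markers 12 were detected, that is, well above background on both control arrays, among them Etv5 and Id4. Kit, Stra8, Dazl, Nanos2 and Thy1 were not. The germ cell helicase gene Ddx4 (-5.69 and -5.77) was near the dimmest detected signal on the control arrays (-6.19 and -5.92). Of 8 Sertoli cell markers 6 were detected, among them Wt1, at 7.09 and 6.75 on the control arrays. All 10 peritubular myoid and fibroblast markers were detected. Precision is limited by the small number of arrays.

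All 10 members were expressed. Of the 17 probes 15, at least 1 for each gene, were well above background on all 4 arrays. None of the 15 tested probes passed the test between the Hdac6 vector and the empty vector. A probe was tested when it was well above background on both arrays of at least 1 group. Of 35214 tested probes on the array 4 passed limma's test at an adjusted p under 0.05 (0.0114%), and 0 of the 15 member probes did. At an unadjusted p under 0.05 the count was 648 (1.84%) over all tested probes and 0 over the members, whose smallest unadjusted limma p was 0.159. In bulk RNA, fewer cells expressing a gene and less RNA per cell cannot be told apart.

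**Figure D2:**
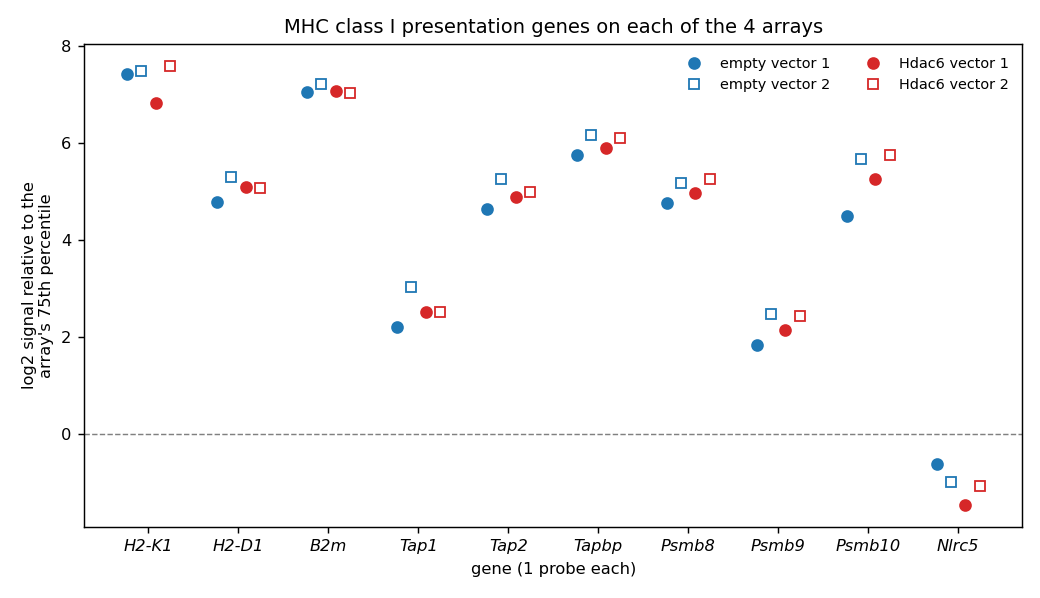
Level of each of the 10 genes (brightest tested probe) on each array, as log2 processed signal minus the 75th percentile of that array (y axis); blue, empty vector; red, Hdac6 vector; filled circles, replicate 1; open squares, replicate 2. In 7 of 10 genes the lowest point is empty vector 1, and in Nlrc5 alone both red points lie below both blue ones.

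For the brightest tested probe of each member, the median absolute difference was 0.46 between the control arrays and 0.12 between the groups. Over all tested probes these were 0.29 and 0.17. A difference between 2-array means varies less than a difference between single arrays, so this order alone is no trait of the members. Read by the brightest tested probe of each gene, empty vector 2 was higher than empty vector 1 in 9 of 10 members, by a median of 0.46 (log2). Over all tested probes that median was -0.02 and 48.2% were higher. The count was 8 of 10 with median scaling and 9 of 10 with quantile normalization. Among the brightest probes the largest difference was 1.17, for Psmb10, and the only negative one was -0.37, for Nlrc5. Of the second probes tested, those of B2m, Tap1 and Nlrc5 were also higher on empty vector 2. Those of H2-K1 and Tapbp were lower (-0.16 each). Empty vector 1 was the lowest of the 4 arrays for 7 of 10 members and for 9 of the 15 tested member probes, against 28.2% of all tested probes. The same 7 of 10 was found with median scaling (18.9% of all tested probes) and with quantile normalization (26.7%). Empty vector 2 was the highest array for 6 members (17.8% of all tested probes), and for 8 with median scaling (18.4%) and 9 with quantile normalization (19.3%). Empty vector 1 also had the largest share of spots above background; the part of this in the result was not tested.

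For H2-D1, Tap1, Tap2, Tapbp and Psmb9 both Hdac6 vector arrays lay between the control arrays. Hdac6 vector 2 read higher than Hdac6 vector 1 in 8 of 10 members, by a median of 0.24, against 0.15 over all tested probes. With quantile normalization it was higher in 5 of 10, with a median of -0.05. Hdac6 vector 1 was below empty vector 2 in all 10 members, by a median of 0.36 (that is, -0.36), although over all tested probes this was the closest pair of arrays (median absolute difference 0.19, against 0.29 to 0.33 for the other pairs). Hdac6 vector 1 was above empty vector 1 in 8 of 10 members, by a median of 0.22. In 9 of 10 members the difference between 2 arrays of 1 group exceeded the difference between the groups, as it did in 85.6% of all tested probes. These values and counts use the brightest tested probe of each gene, describe the 4 arrays and carry no test.

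**Figure D3:**
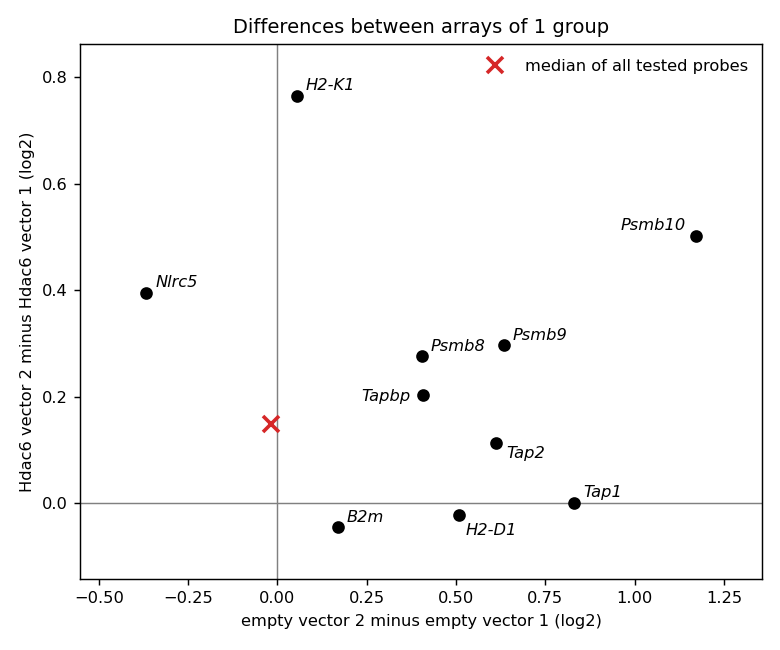
Log2 differences between the 2 arrays of a group, for the brightest tested probe of each gene. The x axis is empty vector 2 minus 1 and the y axis Hdac6 vector 2 minus 1. A red cross at -0.02 and 0.15 is the median of all tested probes. All genes but Nlrc5 lie to the right of 0, Psmb10 farthest at 1.17.

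H2-K1 and H2-D1 encode the heavy chains that hold the peptide. The brighter H2-K1 probe (chromosome 17, 34133055 to 34133114, mm9, minus strand) read 7.42 and 7.48 on the control arrays and 6.82 and 7.58 on the Hdac6 vector arrays. The low value was Hdac6 vector 1 and the groups overlapped. The Hdac6 vector stood at 0.842-fold of the control (n = 2 per group; here and below the range in brackets is limma's 95% interval, 0.523 to 1.36), with a limma adjusted p of 1.00. It changed sign without Hdac6 vector 1 (log2 0.14). The other H2-K1 probe, 929 bases upstream at 34133984 to 34134043, read 4.54 and 4.39 against 4.37 and 4.51, a 0.986-fold difference (0.688 to 1.41).

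That second H2-K1 probe is shown beside a probe for H2-L, a class I heavy chain gene, because the letters in capitals are a run of 29 bases that both carry. The H2-K1 probe shares a run as long with a probe for the class I gene H2-T23.
H2-K1: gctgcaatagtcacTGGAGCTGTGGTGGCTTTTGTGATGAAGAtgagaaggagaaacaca
H2-L: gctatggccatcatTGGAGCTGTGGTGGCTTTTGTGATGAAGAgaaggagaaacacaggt

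Its signal may therefore hold transcripts of more than 1 heavy chain gene and is uncertain as a measure of H2-K1. The brighter H2-K1 probe and the H2-D1 probe share no run of 16 bases with a probe of another gene name. Only probes were compared, not whole transcripts, so this does not show that these probes read 1 gene alone. MHC genes vary between mouse strains, the labels do not give the strain of the line, and mismatches of its alleles to these probes were not examined.

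The only H2-D1 probe (chromosome 17, 35403886 to 35403945, plus strand) read 4.79 and 5.29 on the control arrays and 5.09 and 5.07 on the Hdac6 vector arrays. Both Hdac6 vector arrays lay between the controls, at 1.03-fold (0.689 to 1.54, limma adjusted p = 1.00). The sign changed with median scaling (log2 -0.05) and in the authors' value table (-0.04).

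B2m encodes the light chain shared by all class I molecules. Its brighter probe (chromosome 2, 121978401 to 121978460, plus strand) read 7.05 and 7.22 against 7.07 and 7.03. The groups overlapped, at 0.940-fold, with the narrowest interval of the 10 genes (0.639 to 1.38, limma adjusted p = 1.00). The second B2m probe (121974599 to 121974658) carries the name of a cDNA clone and lies 3802 bases nearer the 5′ end. It read -0.59 and 0.48 on the control arrays and 0.69 and -0.04 on the Hdac6 vector arrays, at 1.30-fold (0.705 to 2.41). Its arrays thus differed by 1.07 within the controls and by -0.74 within the Hdac6 vector group, against 0.17 and -0.04 for the brighter probe. Averaging both probes turned the sign of B2m (log2 0.15).

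Tap1 and Tap2 form the transporter that brings peptides into the endoplasmic reticulum. The brighter Tap1 probe (chromosome 17, 34334022 to 34334081, plus strand) read 2.21 and 3.04 on the control arrays and 2.51 and 2.51 on the Hdac6 vector arrays. The Hdac6 vector arrays agreed to within 0.0012 and lay inside the controls' range, which spanned 0.83. The difference was 0.924-fold (0.579 to 1.47, limma adjusted p = 1.00). The sign depended on the control kept, with a log2 fold change of -0.53 when empty vector 1 was left out and 0.30 when empty vector 2 was. The other Tap1 probe (34330854 to 34330913) was at -1.15 and -0.61 against -0.58 and -0.61, or 1.22-fold (0.773 to 1.91). It too had empty vector 1 as its lowest array.

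The brighter Tap2 probe (chromosome 17, 34353116 to 34353175, plus strand) read 4.65 and 5.26 on the control arrays and 4.88 and 4.99 on the Hdac6 vector arrays. The groups overlapped, at 0.989-fold (0.648 to 1.51, limma adjusted p = 1.00). The second Tap2 probe (34341478 to 34341537) was well above background on empty vector 1 alone, where it read -6.08, and was not tested. On the other arrays, at -7.36, -6.70 and -6.12, it was not well above background, so no fold is given. The authors' value table gives Tap2 a single row. There it stood at -0.45 on empty vector 1 and at 5.52, 5.15 and 5.09 on the other arrays, a log2 difference between the groups of 2.58 (limma adjusted p = 0.842). Brought to the scale of the table, the brighter probe was at 4.91, 5.52, 5.15 and 5.10, and the mean of both probes on empty vector 1 was -0.45. The table's Tap2 row therefore holds 2 probes on 1 array and 1 probe on the others.

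Tapbp encodes tapasin, which bridges the transporter and the empty heavy chain. Its brighter probe (chromosome 17, 34066022 to 34066081, plus strand) read 5.76 and 6.16 against 5.90 and 6.11, at 1.03-fold (0.690 to 1.54, limma adjusted p = 1.00). Both Hdac6 vector values lay within the controls. The sign turned with normexp background correction (log2 -0.07), median scaling (-0.05) and the authors' value table (-0.07). The second Tapbp probe (34063096 to 34063155) was at 0.09 and -0.07 against -0.13 and 0.11, or 0.988-fold (0.661 to 1.48).

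Psmb8, Psmb9 and Psmb10 are the catalytic subunits of the immunoproteasome. All 3 had a fold change above 1, and none passed. The Psmb8 probe (chromosome 17, 34337771 to 34337830, plus strand) read 4.76 and 5.17 on the control arrays and 4.97 and 5.25 on the Hdac6 vector arrays, at 1.11-fold (0.741 to 1.65, limma adjusted p = 1.00). The Psmb9 probe (34319174 to 34319233, minus strand) read 1.85 and 2.48 against 2.14 and 2.44, at 1.09-fold (0.703 to 1.69). Like Tap1 across the shared stretch, Psmb9 had empty vector 1 lowest and empty vector 2 highest. A second probe (34322762 to 34322821), named for another Psmb9 transcript, was not well above background on any array.

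The Psmb10 probe (chromosome 8, 108459677 to 108459736, minus strand) read 4.50 and 5.67 on the control arrays and 5.25 and 5.75 on the Hdac6 vector arrays. Its SD of 0.83 within the empty vector group was the largest of the 10 genes there. Within the Hdac6 vector group its SD was 0.36, below the 0.54 of H2-K1. At 1.33-fold (0.737 to 2.41, limma adjusted p = 1.00) it also had the highest fold change of the members. That value rested on the control kept: the log2 fold change was -0.17 with empty vector 1 left out and 1.00 with empty vector 2 left out. The sign of Psmb8 and Psmb9 turned in the same way without empty vector 1, to -0.06 and -0.19.

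Nlrc5 encodes the regulator that assembles on the promoter module shown above. Its brighter probe (chromosome 8, 97051105 to 97051164, plus strand) holds the letters of the polyadenylation signal, AATAAA, at base 31, and shares a run of 17 bases with a probe for the unrelated gene Serpina3b. It read -0.62 and -0.98 on the control arrays and -1.45 and -1.05 on the Hdac6 vector arrays. Both Hdac6 vector arrays were below both controls, the 1 case of 15 probes in which the groups did not overlap. Over all tested probes 12% had the Hdac6 vector lower in this way, 13.1% had it higher and 25.1% either. The difference of 0.732-fold (0.462 to 1.16) did not pass (limma adjusted p = 1.00). It kept its sign with normexp background correction, median scaling, quantile normalization, the authors' value table and the mean of its probes. The other settings tried gave it the same value as the main fit, so its sign could not change there. Without each array in turn it also kept its sign, between -0.65 and -0.25 on the log2 scale.

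The second Nlrc5 probe (97030478 to 97030624) has coordinates that span 147 bases for its 60, so its match to the genome is interrupted. It read -3.98 and -3.92 against -4.11 and -3.67, with groups that overlapped, at 1.04-fold (0.615 to 1.77). The probes of Nlrc5, which begin 20627 bases apart, therefore did not show the same order of groups. In each of the 7 members with 2 probes the one taken to stand for the gene lay nearer the 3′ end of the transcript in the files' coordinates.

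**Figure D4:**
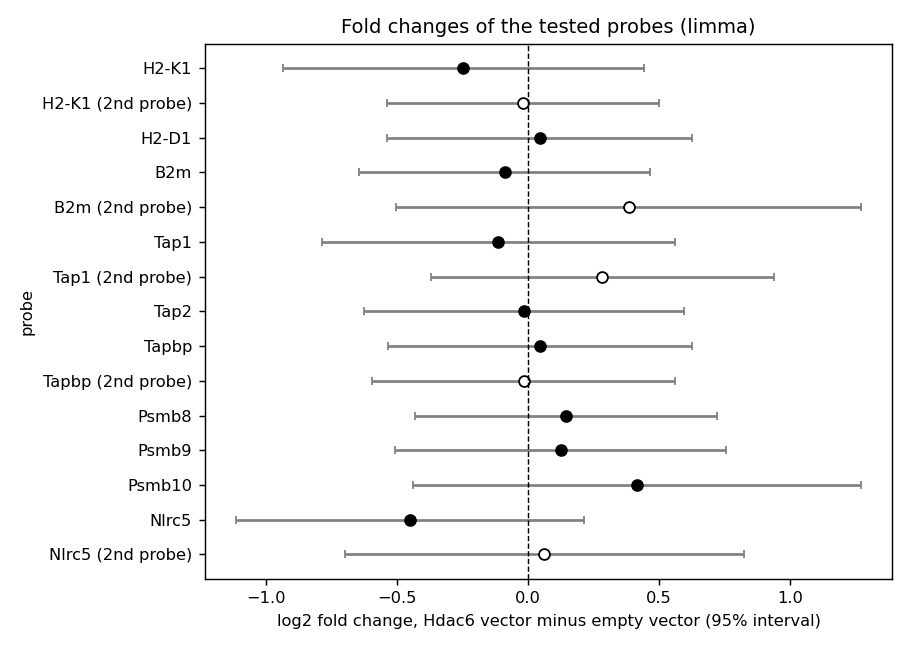
Log2 fold change, Hdac6 vector minus empty vector, with its 95% limma interval for each of the 15 tested probes (filled, the brightest probe of a gene; open, the second). Every interval includes 0, and the points of the brightest probes run from -0.45 for Nlrc5 to 0.41 for Psmb10.

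Over the 10 members, 5 fold changes were above 1 and 5 below. The median log2 fold change was 0.01, beside 0.02 over all tested probes. The median size of the change was 0.12, beside 0.17. The 95% intervals reached down to 0.462-fold, for Nlrc5, and up to 2.41-fold, for Psmb10, with a median distance of 0.62 on the log2 scale from the estimate to either end. With 2 arrays per group, changes inside these intervals could not be told from none. Leaving out 1 control moved the members' median to -0.20 with empty vector 1 left out, or to 0.29 with empty vector 2 left out, so its sign followed the control array that was kept.

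The rest of the pathway was read from lists that hold 174 other genes. Of these 133 were tested. None passed (0, limma), and 2 had an unadjusted p under 0.05, beside 1.84% of all tested probes. That count was 7 with normexp and 4 with quantile normalization and in the authors' value table. It was 8 without the filter, 5 with the replicate block and 10 with the crossed block. The share of all tested probes at that threshold was not counted under these settings, so these counts cannot be set beside it. Among 22 tested other class I and class I-like heavy chains 0 passed, with a median log2 fold change of 0.08 (16 above 0 and 6 below), which was -0.01 with median scaling. Those with the smallest p were Fcgrt, the neonatal Fc receptor gene, at 1.46-fold (0.915 to 2.33), H2-Q5 at 0.777-fold (0.510 to 1.18) and H2-M3 at 0.803-fold (0.544 to 1.19). H2-M3, whose promoter holds the same spaced strings, read 2.37 and 1.96 against 1.76 and 1.94. Genes of this family share sequence, so signals of its single genes are uncertain.

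Peptide loading and trimming genes had a median of 0.00 over 15 tested, with 0 passing. Pdia3, the disulphide isomerase of the loading complex, was at 3.52 and 3.94 against 4.32 and 4.17, or 1.43-fold (0.970 to 2.11, limma adjusted p = 1.00), without overlap of the groups. The peptidase gene Thop1 was at 0.531-fold (0.231 to 1.22), with Hdac6 vector 2 at -1.96 and the other arrays between -0.16 and 0.04, and the endoplasmic reticulum gene Bcap31 at 1.20-fold (0.835 to 1.73). Constitutive proteasome genes had a median of 0.11, with 17 of 20 tested above 0 and 0 passing. Psmb5 and Psmb7, the constitutive counterparts of Psmb8 and Psmb10, were at 1.23-fold (0.833 to 1.81) and 1.22-fold (0.826 to 1.81), and the regulator gene Psme3 at 0.820-fold (0.460 to 1.47). The median of this list was -0.12 without Hdac6 vector 2 and 0.31 without Hdac6 vector 1.

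Transcription regulators of class I genes had a median of 0.00 over 16 tested, 8 of them above 0 and 0 passing. Nfyb, a subunit of the factor that binds CCAAT boxes, was at 0.721-fold (0.450 to 1.15). Rfxap, which helps assemble the complex on the X box, was at 0.815-fold (0.565 to 1.18), and the interferon signalling factor Irf9 at 0.850-fold (0.584 to 1.24). Interferon receptors and kinases had a median of -0.03 over 9 tested with 0 passing. The interferon gamma receptor genes Ifngr2 and Ifngr1 were at 1.25-fold (0.842 to 1.87) and 0.842-fold (0.527 to 1.34), and the kinase gene Jak2 at 1.22-fold (0.793 to 1.87).

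Of the interferon genes 5 were tested and 0 passed. Ifnb1, which encodes interferon beta, an inducer of class I genes, read -2.90 and -0.12 on the control arrays and -2.96 and -2.72 on the Hdac6 vector arrays. Empty vector 2 alone was high, 6.87-fold above empty vector 1. The group difference was 0.397-fold (0.128 to 1.23, limma adjusted p = 1.00), and without empty vector 1 it passed (log2 -2.72, limma adjusted p = 1.56e-06). That fit sets the 1 high array alone against the Hdac6 vector arrays. The array on which Ifnb1 was high is also the one on which 6 of the 10 members were highest; the part of this in the members' values was not tested. Ifnl3 was at 1.23-fold (0.768 to 1.98) and Ifna5 at 1.04-fold (0.608 to 1.77). Ifng did not reach detection in either group.

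**Figure D5:**
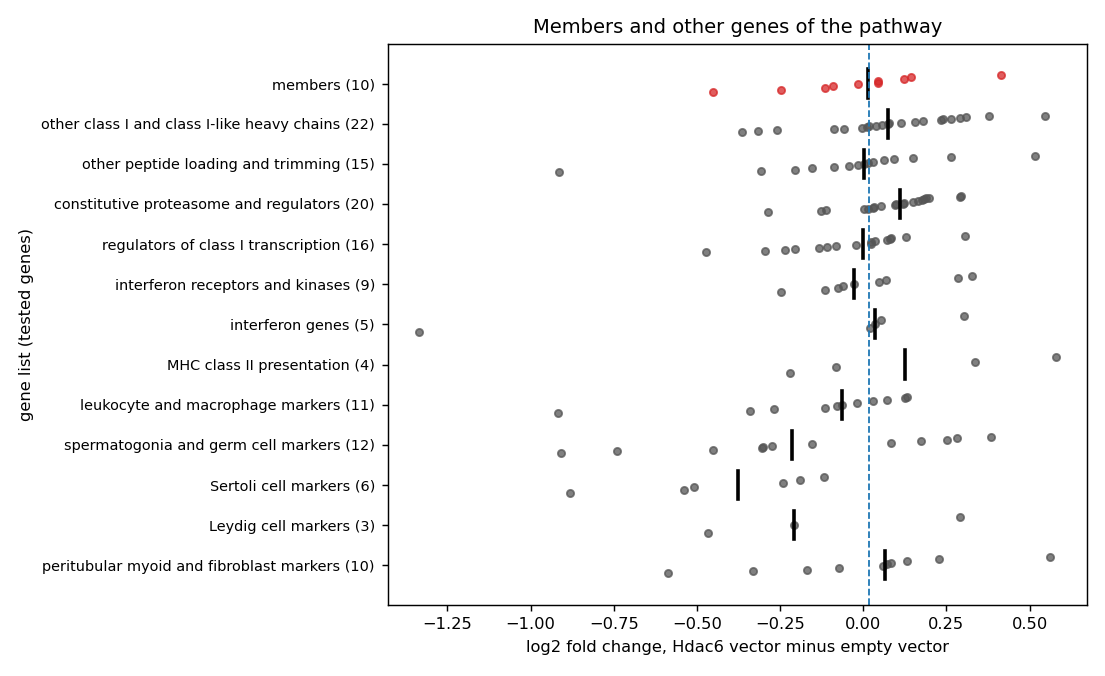
Log2 fold change, Hdac6 vector minus empty vector, of each tested gene (points) of the 10 members (red) and of 12 other lists (grey), with the number of tested genes in brackets; black bars are list medians and the dashed line is the median of all tested probes, 0.02. Ddx4, Gfra1, Fshr, Cd79a, Itgax, Star and Cyp11a1 entered through the empty vector group alone. The far left point is Ifnb1 at -1.33.

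Class II presentation, the route of professional antigen-presenting cells, was mostly not detected. Of 12 class II genes 4 were tested, and 0 passed. The class II heavy and light chain genes H2-Aa, H2-Ab1 and H2-Eb1 did not reach that detection rule in either group. The invariant chain gene Cd74 was detected, at -0.24 and -0.06 against 0.23 and -0.70, as was H2-DMa, a peptide exchange factor gene, at 0.858-fold (0.530 to 1.39). The transactivator gene Ciita, at -5.63 and -5.24 against -5.24 and -4.95, and H2-Ob, at -5.97 and -5.22 against -5.25 and -4.79, were near the dimmest detected signal. They stood at 1.26-fold (0.718 to 2.22) and 1.49-fold, the latter with a log2 interval of -0.33 to 1.48.

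Leukocyte and macrophage markers were read because such cells express class I genes. Of 14 markers 11 were tested and 0 passed. Their summed signal was 36.0 and 24.1 times the array's 75th percentile on the control arrays and 22.1 and 20.8 times with the Hdac6 vector. Without Cd68 the sums were 13.2 and 12.6 against 12.1 and 13.4, so the higher sums lay in that gene. The median log2 fold change of the list was -0.06 (4 above 0 and 7 below), and -0.02 over the genes detected on all arrays. Cd68, a lysosomal protein gene of macrophages that other cells also express, read 4.51 and 3.53 against 3.32 and 2.88, without overlap, at 0.529-fold (0.311 to 0.900, limma adjusted p = 1.00), 1 of the 2 listed genes with an unadjusted p under 0.05. Without empty vector 2 the log2 fold change of Cd68 was -1.41. That fit sets empty vector 1, its highest array, alone against the Hdac6 vector arrays. Cd3e was at 0.831-fold (0.511 to 1.35). Cd79a was below the detection flag on both Hdac6 vector arrays. Other leukocyte and myeloid markers were detected on all 4 arrays: Ptprc (CD45) at 1.82 to 2.11, Cd14 at 2.49 to 2.83, Itgam at 0.39 to 1.03 and Csf1r at -1.84 to -1.32, with groups that overlapped. Adgre1, Tyrobp and Ncr1, markers of macrophages, myeloid cells and natural killer cells, did not reach detection in either group. The part of these cells' transcripts in the members' values was not tested.

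Markers of testis cells gave no call either (0 in each list). Of the spermatogonia and germ cell markers 12 were tested, 2 of which (Ddx4 and Gfra1) entered through the empty vector group alone. Over those detected on all arrays the median was -0.04, with no direction drawn from it. Etv5 was at 0.598-fold (0.347 to 1.03) and Id4 at 0.732-fold (0.405 to 1.32), while Ddx4 was below the detection flag on both Hdac6 vector arrays. Of the 6 tested Sertoli cell markers Fshr entered through the empty vector group alone. The median of the list moved with the setting, from -0.38 to -0.51 over the genes detected on all arrays, -0.13 with normexp, -0.21 in the authors' value table and -0.19 without empty vector 1. Rhox5 read -1.27 and -2.74 against -3.34 and -2.43, with empty vector 1 alone high, at 0.543-fold (0.247 to 1.19). Sox9 was at 0.688-fold (0.410 to 1.16) and Dhh at 0.703-fold (0.372 to 1.33). Rhox5 passed without empty vector 2 (log2 -1.62, limma adjusted p = 0.0437), a fit that sets the high array alone against the Hdac6 vector arrays, and stood at -0.14 without empty vector 1. Of 3 tested Leydig markers Cyp17a1 was at 1.22-fold (0.721 to 2.08) and Star at 0.724-fold (0.306 to 1.71). Cyp11a1 was below the detection flag on both Hdac6 vector arrays, and Star was well above background on only 1 of them. Star and Cyp11a1 entered through the empty vector group alone, so no direction is drawn from their values. Of 10 peritubular and fibroblast markers (median 0.07, and -0.02 with median scaling), Acta2, smooth muscle actin, was at 1.48-fold (1.04 to 2.10, limma adjusted p = 1.00), the other gene with an unadjusted p under 0.05. Cnn1 was at 0.666-fold (0.348 to 1.28) and Des at 0.795-fold (0.442 to 1.43).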

How the data were processed

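Per the file headers, spot intensities in the deposited scanner files were extracted with Agilent Feature Extraction 11.5.1.1 (protocol GE1_1105_Oct12, probe positions in mm9). Background had been subtracted and trends removed from the processed intensity used here, without normalization across arrays. A second table deposited by the authors holds log2 values in 37060 rows named by gene, and no source used here says how it was made. In its 25183 rows of 1 probe, values equalled the log2 processed intensity plus 1 number per array in 99.8% to 99.9% (tolerance 0.01), so its scale and direction are known for them and each array was centred by a number of its own. Column medians were -3.78, -3.67, -3.71 and -3.68. It served as an alternative.

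From the 59305 non-control spots, log2 processed intensities were averaged over repeated spots, leaving out outlier flags, which gave 56605 probes. Each array's 75th percentile was subtracted. The 35214 probes well above background on both arrays of at least 1 group were fitted in R 4.3.3 by limma 3.58.1 (lmFit and trended eBayes, 2 residual degrees of freedom), with two-sided p-values adjusted by Benjamini-Hochberg across these probes and called at 0.05. Intervals are 95%. Genes are represented by their brightest tested probe. Names are those of the files; 5 listed genes (H2-Q6, H2-Q9, Psme2, Ifnl2, Insl3) were not found under these names. Exons and UTRs of probes were not determined.

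Named are all probes of the 10 members, up to 3 genes of smallest unadjusted p and any that passed from each other list, Hdac6, and the 5 gene symbols nearest to the members' mean centred profile. Other genes named (H2-L, H2-T23, Serpina3b, Psme1, Irf1, Psmb2, Calr, Col1a2, Col3a1, Wt1, Cd74, Ptprc, Cd14, Itgam, Csf1r, Gfra1, Fshr, Itgax and undetected markers) were chosen after their values were seen. The members and lists were chosen with earlier results of these data known. The steps were tested on simulated data. The settings of the closing section each changed 1 choice, except the value table, which changes scaling, probe averaging and filter together: normexp (offset 50), median scaling, quantile normalization, 2 filters, no trend, blocks, the value table, probe means and each array left out.

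Same-numbered arrays were not treated as pairs in the main fit. The deviations of same-numbered arrays from their group means had a correlation of -0.35 over 35214 probes. That value cannot show whether these arrays were prepared together.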

Additional observations from a re-analysis of the deposited data

Results flagged for a closer look

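Tap2 in the authors' value table, which the comparisons of the report do not use, was higher with the Hdac6 vector by a log2 difference of 2.58, while its brighter probe differed by -0.02. The table's means were 2.54 for the empty vector and 5.12 for the Hdac6 vector. On each of the 4 arrays the table's Tap2 value was the mean of those of its 2 probes that were well above background, within 0.01. None of the other 9 members differed by more than 0.34 between the groups in that table.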

How the results depend on the processing

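No member passed (0) under any setting or with any array left out. At an unadjusted limma p under 0.05 stood Psmb10 without empty vector 2 and H2-K1 without Hdac6 vector 2, 1 gene each, and 0 in the other fits. With the replicate block 0 members and 0 genes of the other lists passed, and the block changed no other call among them; over all probes 22 passed in place of 4. With the crossed block, added after the data were seen, 17 probes passed and 0 members. Over all probes normexp gave 32, median scaling 0, quantile normalization 2, no filter 5, detection on all arrays 3, no trend 2, the authors' values 31, probe means 2, and an array left out 0 to 310. The median log2 fold change of all tested probes was 0.02 and moved to -0.07 with median scaling; the members' median moved from 0.01 to -0.08 with it. With an array left out the members' median lay between -0.20 and 0.29, and 0 to 2 genes of the other lists passed. Signs were those of values that did not pass. With an array left out 11 of 40 single-gene values changed sign. The 2 filters, no trend and the blocks gave every member the same fold change as the main fit, so no sign could change there. Of 100 single-gene values under other settings, these included, 11 changed sign. Under other settings they were 0.0531 for Tap2 and -0.0698 for Tapbp with normexp, -0.047 for H2-D1 and -0.0461 for Tapbp with median scaling, 0.15 for B2m and 0.0843 for Tap1 with probe means, and -0.0391 for H2-D1, 0.0667 for B2m, 0.0038 for Tap1, 2.58 for Tap2 and -0.0655 for Tapbp in the value table. The value table averages the detected probes of B2m, Tap1, Tap2 and Tapbp, and probe means alone turned B2m and Tap1 too. For Tap2 it holds 2 probes on empty vector 1 and 1 probe on the other arrays. H2-D1 has 1 probe, whose table values differ from its processed intensity only by 1 number per array (tolerance 0.01). The brighter Tapbp probe alone, brought to the scale of the table, read 6.02 and 6.43 on the control arrays against 6.17 and 6.21. Its mean was thus lower with the Hdac6 vector before any averaging of probes. The part of the averaging in the table's value was not tested. Leave-one-out ranges were -0.63 to 0.14 for H2-K1, -0.21 to 0.30 for H2-D1, -0.53 to 0.30 for Tap1, -0.32 to 0.29 for Tap2, -0.16 to 0.25 for Tapbp, -0.0574 to 0.35 for Psmb8, -0.19 to 0.44 for Psmb9 and -0.17 to 1.00 for Psmb10. Fits without an array hold a lone array in 1 group, which is assumed to vary like the other group. The 2 arrays per group limit what can be detected.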

Other observations

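The order of arrays was also read in genes picked after their values were seen. Psme1, a subunit of the interferon-inducible proteasome activator, read 5.00 and 5.66 on the control arrays against 5.37 and 5.59, lowest on empty vector 1 and highest on empty vector 2 as in H2-D1, Tap1, Tap2, Tapbp and Psmb9. Irf1, which encodes a transcription factor that acts on class I genes, did not have this order, at 6.26 and 6.38 against 6.11 and 6.58. Nlrc5 did not have it either, with empty vector 1 its highest array. Psmb2, Calr, Col1a2, Col3a1 and Ptprc of the other lists did have it, so the order was not confined to class I genes. Its share over all tested probes was not counted.

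The members' mean profile, each gene centred on its mean over the 4 arrays, was -0.21 and 0.23 on the control arrays against -0.13 and 0.12. Among 16253 other gene symbols, the nearest profiles by summed squared difference were those of Tgfbr2, a receptor of transforming growth factor beta (-0.19, 0.24, -0.15 and 0.10), Zfp866, Il33, which encodes an alarmin cytokine (-0.25, 0.23, -0.11 and 0.12), Apod and Rnf151. With 4 arrays, near profiles occur among many genes, and this list is a description only.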
